A study of Mus musculus with 16 samples.

Results

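The genes described here carry, export, store and release sterols and fatty acids: the apolipoproteins Apoe and Apoc1, the sterol exporters Abca1 and Abcg1, the fatty acid binding proteins Fabp5 and Fabp3, the lipid droplet coat protein Plin2, the sterol esterifying enzyme Soat1 and the lysosomal sterol exit proteins Npc1 and Npc2. They were chosen by symbol, with earlier results of these data known. Each symbol matched 1 row, and the genes make up 10 of the 54532 in the deposited table. The data are RNA sequencing of microglia, the macrophages that live in the retina, from 8 libraries of mice with oxygen-induced retinopathy (OIR) and 8 libraries of nonOIR mice, all at postnatal day 17. In the OIR model young mice breathe high oxygen, retinal capillaries are lost, and disordered vessels grow back after the return to room air. All mice of both groups carried Cx3cr1CreERT2:Rosa26-tdTomato and received 5 µl of tamoxifen at 21 mg/ml under the skin on postnatal day 1, so the red reporter was switched on in cells that used the Cx3cr1 promoter at that time. The cells of both groups were sorted as CD45low, CD11b+, Tom+, Ly6C- and Ly6G-. Whether each library came from its own mouse, or from several, is not in the labels, so the p-values measure only the spread between these libraries.

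Microglia take up sterol with myelin, dying cells and lipoproteins. Sterol esters are split in the lysosome, NPC2 hands the free sterol to NPC1 in the lysosomal membrane, and SOAT1 in the endoplasmic reticulum can esterify it again for storage in lipid droplets, which PLIN2 coats. Surplus sterol activates the liver X receptors (LXR), whose classical target genes include Abca1, Abcg1, Apoe and Apoc1. ABCA1 and ABCG1 move sterol across the plasma membrane to apolipoprotein acceptors such as APOE.

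The OIR libraries held between 20771745 and 30001463 counts and the nonOIR libraries between 13591651 and 27972049, and the means did not differ beyond the spread (exact permutation test of 8 against 8, two-sided, p = 0.163). In each group 5 libraries carried lane code 1 and 3 carried lane code 2 in their labels. Libraries 1 to 5 of each group are those of lane code 1, and libraries 6 to 8 are those of lane code 2. The code is all the labels give, and it cannot be told apart from a batch of mice, of sorting or of library preparation that followed the same split. Levels are in CPM, counts scaled to a common sequencing depth, with TMM factors. Microglial markers were abundant in every library, with the summed level of 12 markers between 36720 and 61864 CPM in OIR and between 63402 and 77973 CPM in nonOIR. Of the 12, 4 were lower in OIR, Tmem119, P2ry12 and Gpr34 among them. With lane code as a covariate 8 of the 12 were lower and 0 higher, where 17.3% of all 12496 genes tested passed in either direction. The summed level of 8 monocyte markers lay between 15.3 and 116 CPM in OIR and between 6.73 and 72.2 CPM in nonOIR, with Ly6c2 at 0 counts everywhere and Chil3 and Vcan under 1 CPM. The summed level of 6 border macrophage markers lay between 8.69 and 314 CPM in OIR and between 12.3 and 145 CPM in nonOIR. With edgeR 0 monocyte and 0 border macrophage markers passed the test, while 2 and 1 of them had an unadjusted p under 0.05 and DESeq2 called 2 monocyte markers higher and 0 border macrophage markers. The summed level of 10 markers of Müller glia and astrocytes lay between 250 and 386 CPM in OIR and between 334 and 407 CPM in nonOIR. Of the 6 that were tested, Glul alone passed with edgeR, lower in OIR, while DESeq2 called 3 lower. Glul averaged 227 CPM in OIR and 285 CPM in nonOIR, and Rlbp1 2.52 and 6.40 CPM in that order. The estimate for Aldh1l1 was above 0 and did not pass (log2 0.39, edgeR adjusted p = 0.827). The erythrocyte genes Hbb-bs and Hbb-bt were higher, although limma-voom called 0 of them and the call for Hbb-bt was lost in 13 of 16 fits that left out 1 library, with a summed level of 5 markers between 1.87 and 292 CPM in OIR and between 0 and 28.6 CPM in nonOIR. Of 6 genes of dividing cells 5 were higher, with a summed level between 70.1 and 355 CPM in OIR and between 23.5 and 49.6 CPM in nonOIR. The part of these markers in the values of the lipid genes was not tested. In bulk RNA a change in the share of cells of one type and a change in RNA per cell cannot be told apart.

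Across the 10 genes, 6 were higher in OIR at an adjusted p under 0.05 (edgeR quasi-likelihood test, Benjamini-Hochberg over all genes tested): Apoc1, Abca1, Abcg1, Fabp5, Fabp3 and Plin2. With edgeR, DESeq2 and limma-voom 0 were lower, and 0 of the 4 genes that did not pass edgeR had an unadjusted p under 0.05. Over all 12496 genes tested, 10.9% passed the same threshold, 6.39% higher and 4.56% lower in OIR. All 10 genes passed the filter on low counts. Their median log2 fold change, OIR over nonOIR, was 0.94, beside -0.03 over all genes tested. Because the genes were chosen with earlier results of these data known, the count and the median are a description and no test of the set. For Apoc1, Abcg1, Fabp5 and Plin2 every OIR library lay above every nonOIR library, a separation in that direction that 1.34% of the tested genes showed. Apoe, Soat1, Npc1 and Npc2 did not pass the test, and for Apoe the spread between lane codes within a group was larger than the difference between the groups.

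**Figure D1:**
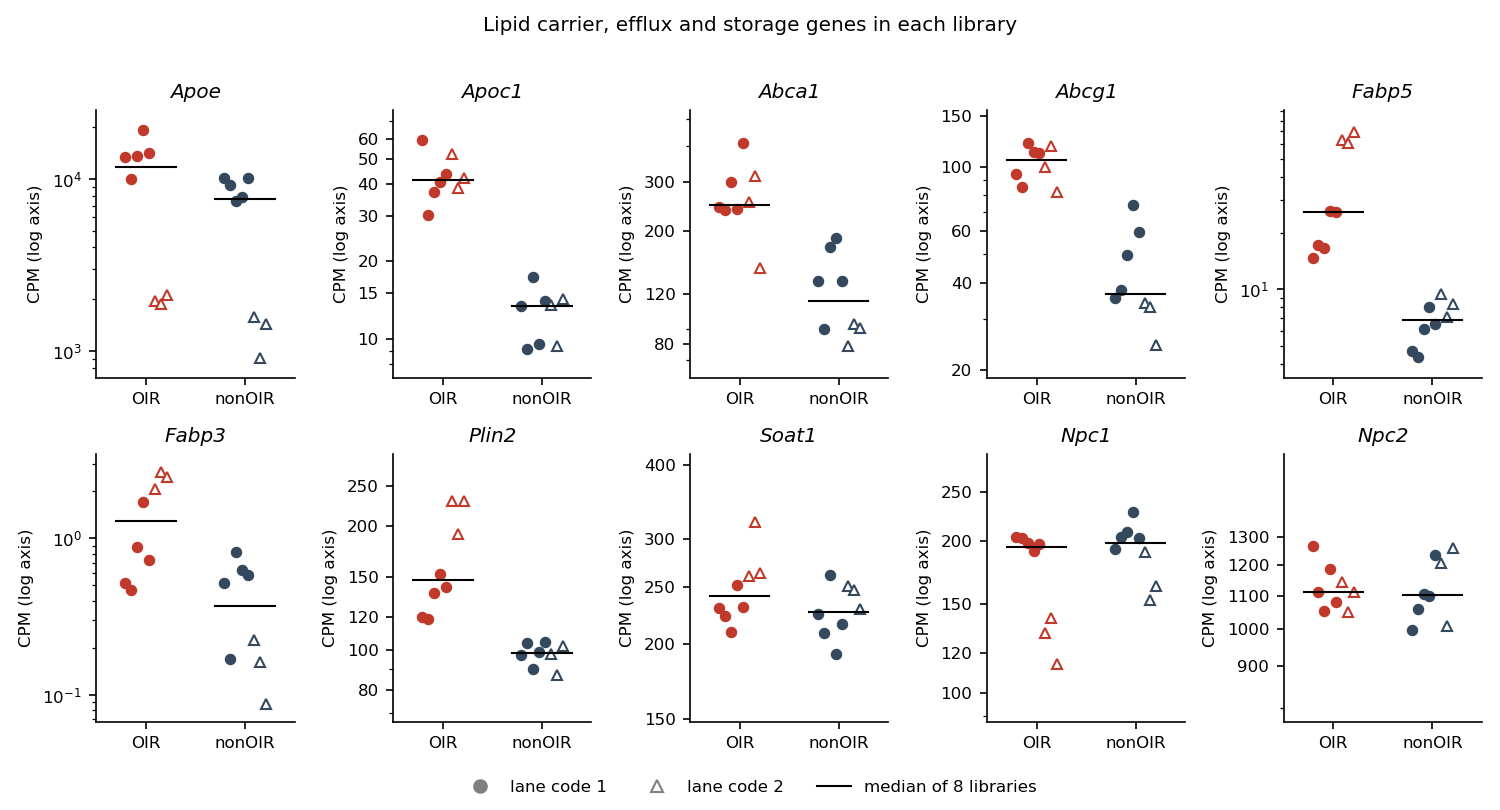
Level of each gene in CPM (log axis) in every OIR library (left) and nonOIR library (right). Filled circles are libraries of lane code 1, open triangles those of lane code 2, and the line is the median of 8 libraries. For Apoc1, Abcg1, Fabp5 and Plin2 the groups do not overlap, and for Apoe the open triangles lie far below the circles in both groups.

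To set genes side by side, levels were divided by kilobases of exon, the union of all annotated exons of a gene. This union can be longer than the mRNA that is made, which lowers the value, so the order below is approximate. It was 3567 bases in 2 blocks for Fabp5 and 5438 bases in 4 blocks for Npc2, against 744 bases for Apoc1. On this scale Apoe was the most abundant of the 10 mRNAs, with 4463 ± 3154 CPM per kilobase in OIR and 2847 ± 1903 in nonOIR (SD, n = 8 each). Npc2 followed with 207 ± 13.4 CPM per kilobase in OIR and 206 ± 18.6 in nonOIR. In OIR the order then ran Apoc1 (57.9), Plin2 (47.1), Abca1 (25.9), Soat1 (25.4), Npc1 (15.3), Abcg1 (14.1), Fabp5 (10.3) and Fabp3 (1.75), in mean CPM per kilobase. In nonOIR it ran Plin2 (27.8), Soat1 (23.4), Npc1 (17.0), Apoc1 (16.9), Abca1 (11.9), Abcg1 (5.96), Fabp5 (1.92) and Fabp3 (0.484). In OIR the neighbours Apoc1 and Plin2, Abca1 and Soat1, Npc1 and Abcg1, and Abcg1 and Fabp5 differed by less than the larger SD of the pair (13.0, 7.35, 3.29 and 6.59 CPM per kilobase in that order), and in nonOIR the neighbours Npc1 and Apoc1 did (3.95).

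Apoc1 encodes a small exchangeable apolipoprotein that sits on lipoprotein particles and restrains lipoprotein lipase. Its gene (7:19689481-19692660, minus strand, mm10 coordinates of GENCODE M21) lies 3449 bases from Apoe in the same gene cluster. In OIR libraries 1 to 8 Apoc1 stood at 59.5, 30.3, 37.2, 40.7, 43.8, 52.1, 38.5 and 42.3 CPM. The 8 nonOIR libraries stood at 13.4, 9.16, 17.3, 9.58, 14.0, 13.5, 9.36 and 14.3 CPM. The lowest OIR library was above the highest nonOIR library, and the lane codes were mixed within each group. The means were 43.1 ± 9.09 CPM in OIR and 12.6 ± 2.94 CPM in nonOIR (SD, n = 8 each), a 3.42-fold difference (log2 1.77 ± 0.16 SE, edgeR adjusted p = 1.93e-05). Apoc1 had the lowest p of the 12496 genes tested. It also ranks 1 by p in the authors' deposited table, which gives a log2 fold change of 1.66 with a standard error of 0.153. Within lane code 1 the log2 difference was 1.74 ± 0.22 (5 against 5 libraries, edgeR adjusted p = 0.00222), and within lane code 2 it was 1.88 ± 0.22 (3 against 3, edgeR adjusted p = 0.000767).

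Apoe encodes the main apolipoprotein of the retina and brain, made by glia, which delivers lipid to cells through lipoprotein receptors. Its gene (7:19696109-19699188, minus strand) gave between 42236 and 502634 counts per OIR library and between 22423 and 261288 per nonOIR library, with the highest mean level per kilobase of the 10 genes in each group. Apoe stood at 13423, 10017, 13570, 19202, 14197, 1953, 1869 and 2109 CPM in OIR libraries 1 to 8. The nonOIR libraries, in the same order, held 10131, 9211, 7451, 7816, 10136, 1586, 913 and 1448 CPM. In both groups the 3 libraries of lane code 2 lay below all 5 of lane code 1. The mean of lane code 1 was 7.12 times that of lane code 2 in OIR and 6.80 times in nonOIR. Over all libraries the OIR difference was 1.57-fold and did not pass the test (log2 0.65 ± 0.57 SE, edgeR adjusted p = 0.524). The authors' deposited table gives a log2 fold change of 0.39 for Apoe with an adjusted p of 0.428.

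With lane code as a covariate, the Apoe difference had nearly the same size and a smaller error, and it passed the test (log2 0.63 ± 0.12 SE, edgeR adjusted p = 0.00139, where 17.3% of the tested genes passed and 9.68% passed as higher). Within lane code 1 Apoe averaged 14082 ± 3296 CPM in OIR and 8949 ± 1265 CPM in nonOIR (SD, n = 5 each), a log2 difference of 0.66 ± 0.14 (edgeR adjusted p = 0.0261; 2.2% of 12523 genes passed as higher in these libraries). The groups overlapped there by 1 library, OIR 2 at 10017 CPM, against 10131 and 10136 CPM in nonOIR 1 and nonOIR 5. Within lane code 2 Apoe averaged 1977 ± 122 CPM in OIR and 1316 ± 355 CPM in nonOIR (SD, n = 3 each), without overlap, a log2 difference of 0.63 ± 0.18 (edgeR adjusted p = 0.0382; 9.63% of 13085 genes passed as higher). When both lane codes were fitted with a group by lane term, the difference within lane code 2 was 0.59 ± 0.20 with an edgeR adjusted p of 0.051. The OIR difference did not differ detectably between lane codes (lane code 2 minus lane code 1, log2 -0.07 ± 0.25 SE, edgeR adjusted p = 0.94).

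The lane difference of Apoe itself was a log2 of -2.80 ± 0.14 SE, lane code 2 over lane code 1, with group in the model (edgeR adjusted p = 6.46e-10). It had the lowest lane p of the 12496 genes tested, of which 24.8% differed between lane codes, 11% higher and 13.8% lower in lane code 2. Of 101 genes that averaged at least 1000 CPM over the 16 libraries, 3 were at least 2-fold lower in lane code 2 and 0 were at least 2-fold higher. After Apoe came Man2b1, a lysosomal mannosidase, at -1.23 and Psap, the precursor of the lysosomal saposins, at -1.02. These genes and Csf1r, a growth factor receptor of microglia at -0.999, were named after their values were seen. Apoc1, the neighbour of Apoe, had a lane difference of 0.02 ± 0.16 (edgeR adjusted p = 0.956). The summed markers of Müller glia and astrocytes, cells that also make APOE, lay between 250 and 279 CPM in lane code 2 and between 277 and 386 CPM in lane code 1 of OIR, and between 334 and 383 CPM in lane code 2 and between 372 and 407 CPM in lane code 1 of nonOIR. Glul made up most of each sum, and the other markers did not all go the same way. In nonOIR Slc1a3 stood at 89.5, 80.7 and 74.2 CPM in lane code 2 and at 78.1, 60.5, 57.5, 75.8 and 63.6 CPM in lane code 1. There Aldh1l1 stood at 0, 0.0407 and 0 CPM in lane code 2 and at 22.3, 16.1, 17.1, 7.16 and 23.0 CPM in lane code 1. The part of these glial markers in the Apoe values was not tested. No transcript of another gene shared a 50-base stretch with Apoe, so reads of the length used here would not be split with a copy.

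**Figure D2:**
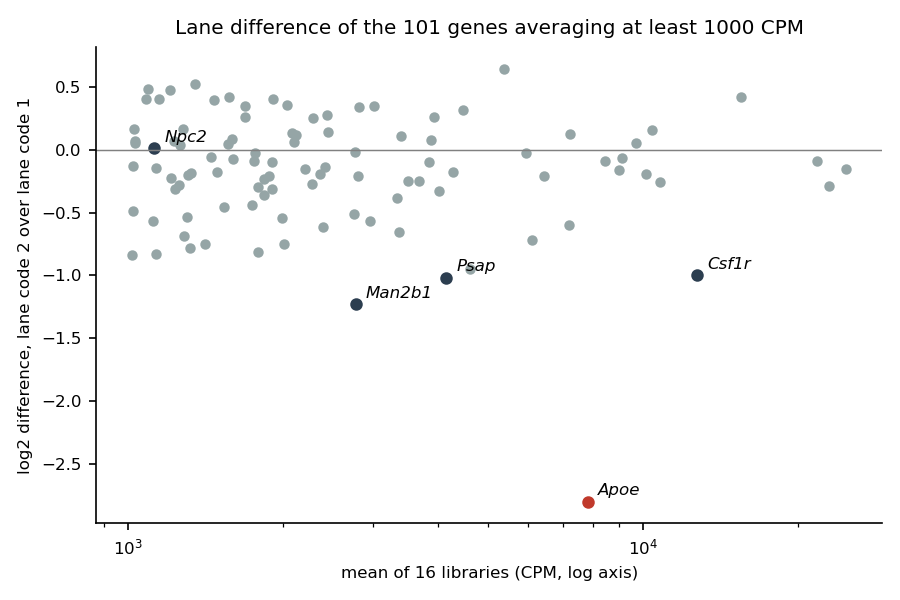
Log2 difference between lane codes (lane code 2 over lane code 1, group in the model) against the mean level over 16 libraries in CPM (log axis), for the 101 genes with a mean of at least 1000 CPM. Apoe, in red at -2.80, stands apart from Man2b1 at -1.23, the next lowest of these genes, while Npc2 lies at 0.01.

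Abca1 encodes the transporter that loads sterol and phospholipid onto lipid-poor apolipoproteins, and Abcg1 the one that hands sterol to mature lipoprotein particles. Both were more than 2-fold higher in OIR. Abca1 (4:53030787-53159895, minus strand) stood at 243, 238, 299, 239, 412, 253, 314 and 149 CPM in OIR libraries 1 to 8. In nonOIR libraries 1 to 8 it stood at 134, 90.6, 176, 190.1, 133, 78.9, 94.3 and 91.4 CPM. A single OIR library, OIR 8, lay within the nonOIR range, below nonOIR 3 and nonOIR 4. The difference was 2.17-fold (log2 1.12 ± 0.20 SE, edgeR adjusted p = 0.00172), with 8 of 8 OIR libraries above the nonOIR median. OIR 8 and the high nonOIR libraries carry different lane codes, and within each lane code the groups did not overlap.

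Abcg1 (17:31057675-31117988, plus strand) stood at 94.5, 85.4, 120.3, 112, 112, 100.2, 118 and 82.0 CPM in OIR libraries 1 to 8. In nonOIR libraries 1 to 8 it stood at 35.4, 37.7, 49.7, 74.0, 59.5, 34.2, 32.9 and 24.5 CPM. The groups did not overlap. Abcg1 averaged 103 ± 14.7 CPM in OIR and 43.5 ± 16.4 CPM in nonOIR (SD, n = 8 each), a 2.37-fold difference (log2 1.24 ± 0.18 SE, edgeR adjusted p = 0.000435). In nonOIR the 3 libraries of lane code 2 held the lowest Abcg1 values and 3 of the 4 lowest Abca1 values. The log2 difference of Abca1 was 0.99 ± 0.20 within lane code 1 and 1.48 ± 0.23 within lane code 2, and that of Abcg1 was 1.04 ± 0.19 and 1.76 ± 0.18 in the same order. The change of the difference between lane codes did not pass the test for Abca1 (log2 0.45 ± 0.34 SE, edgeR adjusted p = 0.622) or for Abcg1 (0.68 ± 0.29, edgeR adjusted p = 0.318).

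The bases before the starts of Abca1, of Plin2 and of Apoe are shown here because these genes carry the export, storage and carrier results. RefSeq (GRCm38.p6) promoters were found for 6 of the 10 genes: Apoe, Abca1, Fabp3, Plin2, Soat1 and Npc2. Each line gives the 250 bases before the start, 5′ to 3′ on the gene's strand, and capitals mark matches to the motifs searched: a loose form of DR4, the spaced direct repeat that LXR binds, a sterol response element (TCACNCCAC), the E-box CACGTG, the hypoxia response cores ACGTG and GCGTG, and TATAAA, each on both strands. The stretches are chr4:53159896-53160145 for Abca1, chr4:86670060-86670309 for Plin2 and chr7:19699189-19699438 for Apoe, all on the minus strand.
Abca1: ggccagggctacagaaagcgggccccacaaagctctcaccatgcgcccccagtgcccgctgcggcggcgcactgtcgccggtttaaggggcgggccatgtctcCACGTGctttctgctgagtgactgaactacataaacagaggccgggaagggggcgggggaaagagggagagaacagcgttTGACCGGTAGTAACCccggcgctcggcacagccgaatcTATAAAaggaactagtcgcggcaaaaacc
Plin2: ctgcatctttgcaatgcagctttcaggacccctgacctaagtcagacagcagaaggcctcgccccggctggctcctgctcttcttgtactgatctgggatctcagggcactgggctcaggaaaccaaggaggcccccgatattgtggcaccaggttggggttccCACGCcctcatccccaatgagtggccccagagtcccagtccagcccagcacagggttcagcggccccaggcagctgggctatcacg
Apoe: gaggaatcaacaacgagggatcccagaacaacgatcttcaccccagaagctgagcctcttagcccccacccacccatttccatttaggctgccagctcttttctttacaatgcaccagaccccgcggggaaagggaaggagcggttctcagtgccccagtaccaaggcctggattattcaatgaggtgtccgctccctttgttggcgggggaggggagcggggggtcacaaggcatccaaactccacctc

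In Abca1 the loose DR4 matched on the opposite strand from 67 to 53 bases before the start, a match that 0.621% of 32536 promoters of the same length held. Abca1 was the single member of the 6 with that match. Its promoter also held CACGTG from 147 to 142 bases before the start, which overlaps the core ACGTG on both strands, and TATAAA from 29 to 24 bases before the start. Of all promoters, 6.04% held CACGTG, 16.7% held ACGTG and 12.3% held TATAAA. In Plin2 the core GCGTG matched on the opposite strand from 86 to 82 bases before the start, as it did somewhere in 28.3% of promoters. Soat1 and Npc2 also held GCGTG, and they did not pass the OIR test. None of the motifs matched in the printed stretch of Apoe, and TCACNCCAC, which 1.04% of promoters held, matched in none of the 6. These matches describe letters in a short window and no binding was measured.

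**Figure D3:**
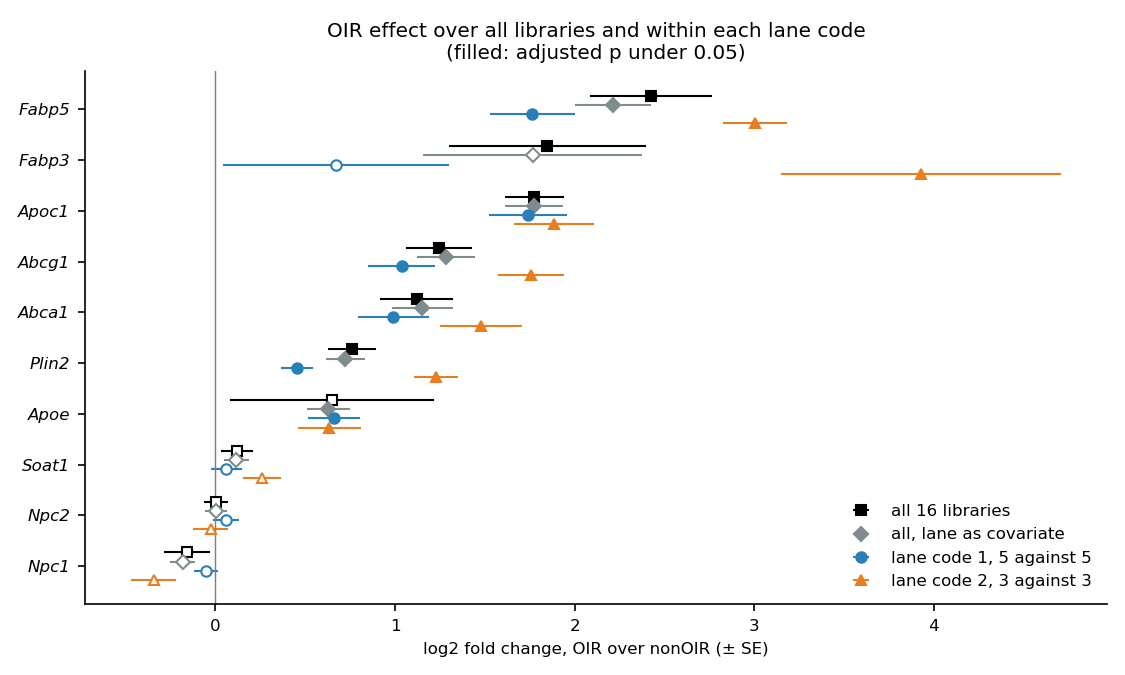
Log2 fold change, OIR over nonOIR, with its standard error for each gene in 4 fits: all 16 libraries, all libraries with lane code as a covariate, lane code 1 alone (5 against 5) and lane code 2 alone (3 against 3). Filled symbols have an adjusted p under 0.05. Apoe has nearly the same estimate in the 4 fits but passes in all except the fit without lane code, and Plin2, Fabp5 and Fabp3 have larger estimates in lane code 2.

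Fabp5 and Fabp3 encode small cytosolic proteins that bind fatty acids and carry them between membranes and the nucleus. Fabp5 (3:10012548-10016607, plus strand) had the largest fold of the 10 genes, 5.37-fold higher in OIR (log2 2.43 ± 0.34 SE, edgeR adjusted p = 0.000299). It stood at 14.7, 17.2, 16.7, 26.2, 26.0, 63.1, 61.0 and 69.8 CPM in OIR libraries 1 to 8. The nonOIR libraries stood at 4.67, 4.37, 6.16, 8.01, 6.52, 9.41, 7.12 and 8.39 CPM. The groups did not overlap, and the 3 OIR libraries of lane code 2 were more than 2-fold above the other 5. Fabp5 was 3.39 times as high in OIR as in nonOIR within lane code 1 (20.1 ± 5.48 and 5.95 ± 1.48 CPM, SD, n = 5 each). Within lane code 2 it was 7.78 times as high (64.6 ± 4.60 CPM in OIR and 8.31 ± 1.14 CPM in nonOIR, SD, n = 3 each). The log2 difference was larger in lane code 2 by 1.20 ± 0.32 SE, which did not pass after adjustment (edgeR adjusted p = 0.0907).

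Fabp3 (4:130308595-130315463, plus strand) was the least abundant of the 10 genes, with 11 to 64 counts per OIR library and 2 to 15 counts per nonOIR library. It stood at 0.516, 0.469, 0.878, 1.72, 0.726, 2.07, 2.66 and 2.46 CPM in OIR libraries 1 to 8. In nonOIR libraries 1 to 8 it stood at 0.518, 0.168, 0.818, 0.627, 0.582, 0.223, 0.163 and 0.0869 CPM. The groups overlapped, although 8 of 8 OIR libraries lay above the nonOIR median. The difference was 3.60-fold (log2 1.85 ± 0.55 SE, edgeR adjusted p = 0.0361). It did not pass within lane code 1 (log2 0.67 ± 0.63, edgeR adjusted p = 0.678) and passed within lane code 2 (3.93 ± 0.78, edgeR adjusted p = 0.00986). The call was also lost with lane code as a covariate (edgeR adjusted p = 0.0529) and in 9 of the 16 fits that left out 1 library (OIR 4, 6, 7 or 8, or nonOIR 1, 2, 6, 7 or 8), with an adjusted p between 0.0246 and 0.0813 over the 16 fits. Of the 50-base stretches of Fabp3 transcripts, 37.3% also occur in transcripts of other genes, and its exons overlap Zcchc17 and Gm10570 on the opposite strand, so its count is uncertain. Fabp5 shares 5.48% of such stretches with transcripts of other genes.

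Plin2 encodes perilipin 2, the coat protein found on lipid droplets of most cells. It stood at 120.4, 119, 138, 153, 142, 230.0, 191 and 229.7 CPM in OIR libraries 1 to 8. In nonOIR, Plin2 stood at 97.2, 104, 90.0, 98.6, 104, 97.7, 86.7 and 102 CPM. The nonOIR libraries lay close together whatever their lane code, and every OIR library was above them. Plin2 (4:86648386-86670060, minus strand) averaged 165 ± 45.6 CPM in OIR and 97.5 ± 6.30 CPM in nonOIR (SD, n = 8 each), a 1.70-fold difference (log2 0.76 ± 0.13 SE, edgeR adjusted p = 0.00144). Within lane code 1 Plin2 averaged 134 ± 14.5 CPM in OIR and 98.7 ± 5.78 CPM in nonOIR (SD, n = 5 each; log2 0.45 ± 0.09, edgeR adjusted p = 0.0174). Within lane code 2 it averaged 217 ± 22.5 CPM in OIR and 95.5 ± 7.90 CPM in nonOIR (SD, n = 3 each; log2 1.23 ± 0.12, edgeR adjusted p = 0.000319). The difference between OIR and nonOIR was larger in lane code 2 than in lane code 1 by a log2 of 0.74 ± 0.14 SE (edgeR adjusted p = 0.0305). Plin2 was the single member for which that change passed the test, beside 0.496% of the 12496 genes, or 0.28% in the same direction.

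Summed marker levels were also read by lane code in OIR, where Plin2 and Fabp5 were higher in lane code 2. The summed border macrophage markers lay between 234 and 314 CPM in the OIR libraries of lane code 2, against 8.69 to 129 CPM in those of lane code 1. Pf4 made up most of the sum in OIR lane code 2 (174, 124 and 194 CPM). Pf4, Cd163, Cbr2 and Ccl8 did not overlap between the lane codes of OIR, while Mrc1 and Lyve1 did. Mrc1 stood at 68.0, 57.5 and 55.5 CPM in OIR lane code 2 and at 61.6, 69.2, 2.31, 17.6 and 18.5 CPM in OIR lane code 1. The summed monocyte markers lay between 93.2 and 116 CPM in OIR lane code 2 and between 15.3 and 48.2 CPM in OIR lane code 1. F13a1 made up most of that sum in OIR lane code 2 (101, 112 and 86.0 CPM), while Ccr2 and Plac8 were not higher there. Ccr2 stood at 3.55, 2.97 and 3.97 CPM in OIR lane code 2 and at 14.0, 6.86, 2.64, 4.28 and 3.49 CPM in OIR lane code 1. The summed genes of dividing cells overlapped, between 265 and 355 CPM in OIR lane code 2 and between 70.1 and 279.6 CPM in OIR lane code 1. Rrm2, Ccnb1, Birc5 and Cdk1 were higher in every OIR library of lane code 2, while Top2a and Mki67 overlapped. Mki67 stood at 9.31, 5.58 and 5.24 CPM in OIR lane code 2 and at 1.87, 4.13, 22.6, 13.9 and 13.0 CPM in OIR lane code 1. In the same libraries the summed microglial markers lay between 36720 and 43378 CPM in lane code 2 and between 51781 and 61864 CPM in lane code 1. Their part in the Plin2, Fabp5 and Fabp3 values was not tested.

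**Figure D4:**
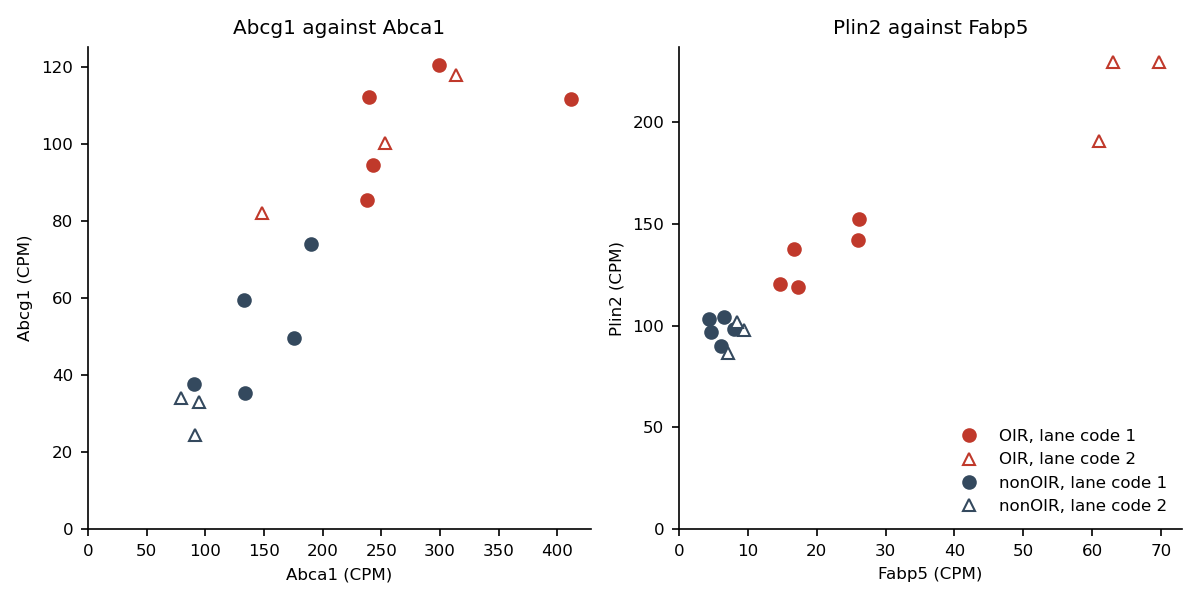
Levels in CPM of Abcg1 against Abca1 (left) and of Plin2 against Fabp5 (right) in the 16 libraries. Red marks OIR and dark blue nonOIR, circles lane code 1 and open triangles lane code 2. In the right panel the 3 OIR libraries of lane code 2 lie apart, at 61.0 to 69.8 CPM of Fabp5 and 191 to 230.0 CPM of Plin2, and the nonOIR libraries of both lane codes lie together.

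Soat1 encodes the enzyme that esterifies sterol in the endoplasmic reticulum. Soat1 (1:156424525-156474331, minus strand) had a lowest, median and highest level of 209, 241 and 320.2 CPM in OIR and of 193, 227 and 261 CPM in nonOIR. The groups overlapped. The difference was 1.09-fold and did not pass (log2 0.12 ± 0.09 SE, edgeR adjusted p = 0.435). Within lane code 2 the 3 OIR libraries lay above the 3 nonOIR libraries, at 281 ± 33.8 CPM in OIR and 242 ± 11.7 CPM in nonOIR, with a log2 difference of 0.26 ± 0.11 that did not pass either (edgeR adjusted p = 0.135).

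Npc1 (18:12189692-12236400, minus strand), the membrane protein of lysosomal sterol exit, had a lowest, median and highest level of 114, 195 and 204 CPM in OIR and of 153, 198 and 229 CPM in nonOIR. Its difference did not pass (log2 -0.16 ± 0.13 SE, edgeR adjusted p = 0.475). The 3 lowest OIR values, 132, 141 and 114 CPM, were those of lane code 2, and the 3 lowest nonOIR values, 190.4, 153 and 163 CPM, also were. Npc1 was lower in lane code 2 than in lane code 1 by a log2 of -0.46 ± 0.07 SE with group in the model (edgeR adjusted p = 0.000171). Within lane code 2 the OIR and nonOIR libraries did not overlap for Npc1. The log2 difference there was -0.34 ± 0.12 in these libraries alone (edgeR adjusted p = 0.0971) and -0.39 ± 0.10 when read from the fit of all libraries with a group by lane term (edgeR adjusted p = 0.0111). The exons of Npc1 overlap Rmc1 and Gm15956 on the opposite strand, and the libraries do not mark strand.

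Npc2 (12:84754562-84773152, minus strand), the soluble lysosomal protein that passes sterol to NPC1, varied little between libraries. It had a lowest, median and highest level of 1050.3, 1112 and 1266 CPM in OIR and of 999, 1103 and 1259.6 CPM in nonOIR. Its coefficient of variation over libraries was 6.45% in OIR, the lowest of the 10 genes there, and 9.02% in nonOIR, where Plin2 had the lowest, 6.46%. The log2 difference was 0.00 ± 0.07 SE (edgeR adjusted p = 0.978), and the estimate was below 0 under some settings. Npc2 differed by 0.01 ± 0.06 between lane codes (edgeR adjusted p = 0.91).

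Of the 10 genes, 5 differed between lane codes at an adjusted p under 0.05 with group in the model: Apoe and Npc1 were lower in lane code 2, and Fabp5 (log2 1.13 ± 0.21 SE, edgeR adjusted p = 0.000556), Plin2 (0.33 ± 0.11, edgeR adjusted p = 0.0338) and Soat1 (0.22 ± 0.07, edgeR adjusted p = 0.0324) were higher. Among all 12496 genes tested 24.8% differed, 11% higher and 13.8% lower in lane code 2. For Plin2 the lane difference lay in OIR, at 217 CPM in lane code 2 and 134 CPM in lane code 1, while nonOIR averaged 95.5 CPM in lane code 2 and 98.7 CPM in lane code 1. Abca1 (log2 -0.48 ± 0.18, edgeR adjusted p = 0.053) and Abcg1 (-0.39 ± 0.17, edgeR adjusted p = 0.0917) did not pass the lane test.

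Other genes of lipid handling were read from 7 lists chosen by function, with earlier results of these data known. The counts below stand beside 10.9% of all 12496 genes tested that passed, 6.39% as higher and 4.56% as lower in OIR. The list of other apolipoproteins held 13 genes, of which Apobr encodes a receptor of apolipoprotein B and is no apolipoprotein. Clu and Apobr, 2 of the 13, passed the filter on low counts, and neither passed the test. Clu averaged 1.99 ± 1.85 CPM in OIR and 3.12 ± 2.63 CPM in nonOIR, and Apobr 11.5 ± 5.14 CPM in OIR and 12.2 ± 5.61 CPM in nonOIR (SD, n = 8 each). Apoa4, Apoa5, Apoc2 and Apoc3 were at 0 counts in every library. Of 8 other fatty acid binding proteins only Fabp12 passed the filter, at 1.11 ± 0.994 CPM in OIR and 1.23 ± 1.28 CPM in nonOIR (SD, n = 8 each), and it did not pass the test. Among 17 other sterol and lipid ABC transporters 9 were tested and 0 passed with edgeR, DESeq2 or limma-voom, although 3 had an unadjusted p under 0.05 with edgeR. The lowest adjusted p was 0.152, for Abcg2, a multidrug and sterol transporter at 86.4 ± 9.08 CPM in OIR and 103 ± 19.1 CPM in nonOIR. With lane code as a covariate Abca7, a close relative of Abca1, passed as higher (log2 0.97, edgeR adjusted p = 0.0129), and Abca9 passed as lower (-0.33, edgeR adjusted p = 0.0456).

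Among 13 LXR receptors and targets 11 were tested, of which 2 were higher and 1 was lower in OIR, with a median log2 of 0.23. Lpl, lipoprotein lipase, averaged 425 ± 61.1 CPM in OIR and 137 ± 51.5 CPM in nonOIR, a 3.10-fold difference without overlap (edgeR adjusted p = 0.000126). Scd2, which puts a double bond into saturated fatty acids, averaged 129 ± 26.9 CPM in OIR and 78.8 ± 22.9 CPM in nonOIR (edgeR adjusted p = 0.0113). Rxrb, a partner receptor of LXR, was lower, at 75.1 ± 5.91 CPM in OIR and 91.9 ± 10.6 CPM in nonOIR (edgeR adjusted p = 0.0347), a call lost in 11 of the 16 fits that left out 1 library and kept without OIR 2, OIR 4, nonOIR 1, nonOIR 2 or nonOIR 5 (adjusted p between 0.0142 and 0.0826 over the 16 fits).

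All 13 lipoprotein and lipid uptake receptors were tested, of which 4 were higher and 1 was lower, with a median log2 of 0.15. The scavenger receptor Cd36 averaged 43.8 ± 35.5 CPM in OIR and 6.74 ± 3.99 CPM in nonOIR, a 6.50-fold difference with overlapping groups (edgeR adjusted p = 0.00232). Msr1, another scavenger receptor, was 3.44-fold higher (27.6 ± 19.99 CPM in OIR and 8.02 ± 2.97 CPM in nonOIR, edgeR adjusted p = 0.00829), and Olr1, a receptor of oxidised lipoprotein, was 1.99-fold higher (9.16 ± 2.94 CPM in OIR and 4.62 ± 1.96 CPM in nonOIR, edgeR adjusted p = 0.0274). Lrp8, an APOE receptor, was scarce, at 3.25 ± 2.62 CPM in OIR and 0.260 ± 0.318 CPM in nonOIR (edgeR adjusted p = 0.0119). Without 1 library the call was lost in 3 of 16 fits for Olr1 (OIR 3, nonOIR 2 or nonOIR 7, highest adjusted p 0.0539), and it held in all 16 for Cd36, Msr1 and Lrp8.

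Of 25 other genes of droplet coats, storage and lipolysis 17 were tested, 2 were higher and 1 was lower, with a median log2 of -0.01. Plin3, a coat protein of small droplets, was 1.28-fold higher in OIR (82.2 ± 10.4 CPM in OIR and 64.3 ± 9.52 CPM in nonOIR, edgeR adjusted p = 0.0373). Nceh1, a sterol ester hydrolase, was 1.21-fold higher (edgeR adjusted p = 0.044). Mgll, which splits monoglycerides, was lower, at 20.4 ± 6.32 CPM in OIR and 30.5 ± 4.91 CPM in nonOIR (edgeR adjusted p = 0.0477). Without 1 library the call for Plin3 was kept in 5 of 16 fits (without OIR 1, OIR 2, nonOIR 2, nonOIR 4 or nonOIR 5), that for Nceh1 in 4 (without OIR 3, OIR 5, nonOIR 4 or nonOIR 6) and that for Mgll in 3 (without OIR 1, OIR 2 or OIR 5), with adjusted p values of up to 0.0721, 0.086 and 0.094 in that order. Plin1, Plin4 and Plin5 were under 1 CPM in every library.

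Of 27 genes of lysosomal lipid release and sterol transfer 23 were tested, 1 was higher and 2 were lower, with a median log2 of -0.04. Lipa, the lysosomal acid lipase that frees sterol from its esters, averaged 570 ± 84.5 CPM in OIR and 423 ± 38.0 CPM in nonOIR, a 1.35-fold difference (edgeR adjusted p = 0.00483). The lysosomal phospholipase Pla2g15 was lower, at 773 ± 114 CPM in OIR and 1046 ± 103 CPM in nonOIR (edgeR adjusted p = 0.00538). Stard3, which tethers late endosomes and moves sterol, was also lower, at 189 ± 13.0 CPM in OIR and 231 ± 17.7 CPM in nonOIR (edgeR adjusted p = 0.00948). These 3 calls held in all 16 fits that left out 1 library. Over all genes tested the median log2 was -0.03, with 6.39% called higher and 4.56% called lower.

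**Figure D5:**
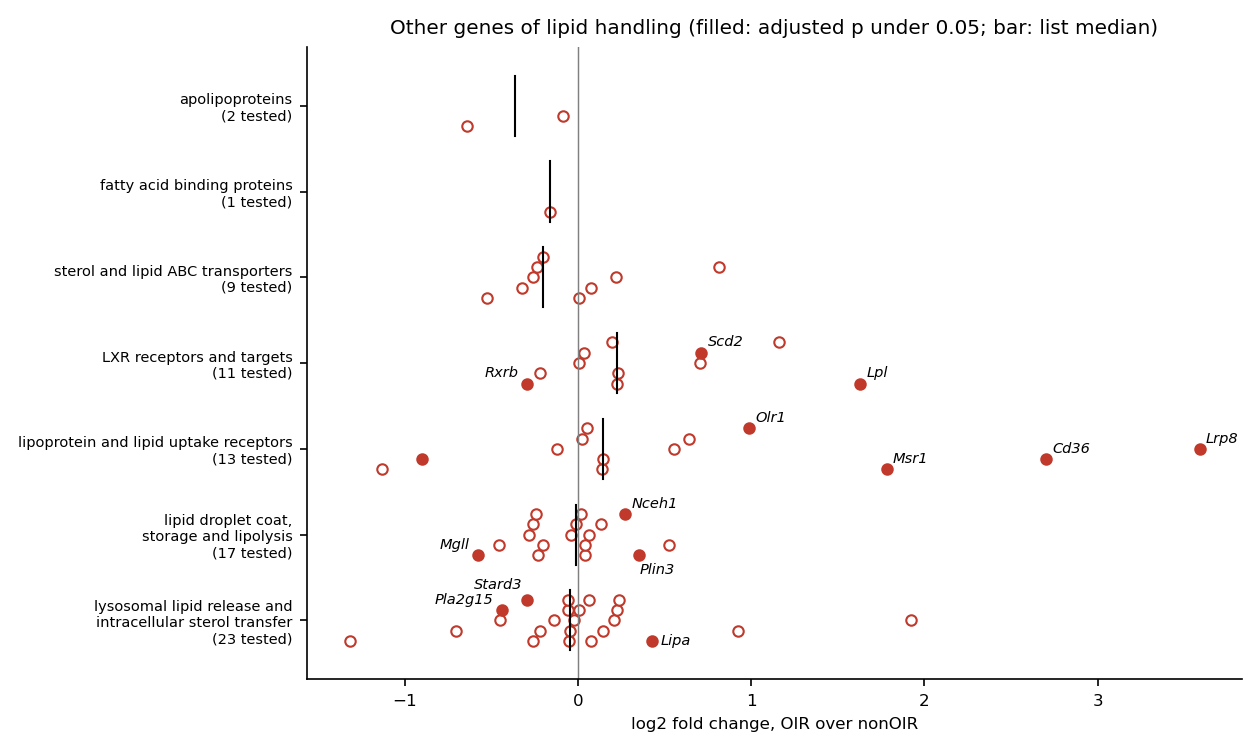
Log2 fold change, OIR over nonOIR, of every tested gene in 7 lists of other lipid genes, with the number tested in each. Filled points have an adjusted p under 0.05, names stand beside the genes given in the text, and the bar is the list's median. In the uptake receptor list Cd36, Msr1, Olr1 and Lrp8 were higher in OIR.

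For Apoe, Abca1 and Plin2 the genes with the most similar pattern were taken as the 3 with the highest Pearson r of log2(CPM + 1) over the 16 libraries, after each gene was centred on its group means. For Apoe these were Bin2 (r = 0.982), Ptpn6 (0.981) and Ik (0.973). Centred also on lane code, their r with Apoe was 0.713, 0.654 and 0.456 in the same order. For Abca1 they were Zfp64 (0.854), Abcc3 (0.844) and Eftud2 (0.838), with r of 0.767, 0.806 and 0.736 once lane code was centred too. For Plin2 they were Cfl1 (0.976), Capg (0.944) and Cxcl14 (0.939), with r of 0.914, 0.654 and 0.713. The libraries share lane codes, and these r are a description of 16 libraries, picked as the highest of all genes tested.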

How the data were processed

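The libraries were prepared, per the labels' protocols, from 750 pg of total RNA with 12 rounds of cDNA amplification and 150 pg of tagmented cDNA. Reads were single, 50 bases long, unstranded and without molecular identifiers, so errors rest on reads and not on molecules. Per the submitters' processing notes the tools were STAR 2.6.0b-1, featureCounts 1.6.2, FastQC 0.72 and DESeq2 2.11.40.2, with mm10 and no roles stated. The gene annotation was not given in the sources used here. Raw counts per gene are in the deposited table, per the file headers. For each library the authors' normalized signal is the count over 1 constant factor. The authors' log2 fold changes, their deposited scores (standard error and Wald) and their deposited p-values are quoted only where named.

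Low counts were removed with filterByExpr, TMM gave the scaling, and edgeR 4.0.16 (R 4.3.3) gave the two-sided quasi-likelihood tests (robust glmQLFit), adjusted by Benjamini-Hochberg over 12496 genes, threshold 0.05. The biological coefficient of variation was 40.3%. Alternatives were other scalings, no filter, limma-voom 3.58.1, DESeq2 1.42.0, lane code as a covariate, each lane code alone, a replicate block and the omission of each library. The group by lane fit read within each lane code, and the lane test itself, were added after seeing the data. The test was run on simulated counts of 8 against 8 libraries, made without a lane difference. It recovered 19 of 67 planted 1.5-fold differences, 49 of 67 of 2-fold and 61 of 66 of 4-fold, with 6 false calls among 135. A gene that did not pass may thus still differ by a small fold. Every pair of libraries within a group differed by more than sampling noise, with a chi-square of 15.7 or more per gene. Groups and replicate numbers came from titles, lane codes from descriptions. Named genes are the 10 members, up to 3 genes with the lowest p from each list and list genes that passed, some of which are not reported here. The members and lists were chosen with earlier results of these data known. Gene positions are those of GENCODE M21 (mm10), which held 54409 of 54532 identifiers, and promoters are RefSeq's.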

Additional observations from a re-analysis of the deposited data

Results flagged for a closer look

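Among the 10 genes, Plin2 is the single one for which the effect of OIR differed between the lane codes by a test of the difference itself. Its log2 difference between OIR and nonOIR was larger in lane code 2 than in lane code 1 by 0.74 ± 0.14 SE (edgeR quasi-likelihood test, adjusted p = 0.0305). The same test called 62 of all 12496 genes (0.496%), 35 of them in the same direction (0.28%). Plin2 averaged 217 ± 22.5 CPM in OIR and 95.5 ± 7.90 CPM in nonOIR within lane code 2 (SD, n = 3 each), and 134 ± 14.5 CPM in OIR and 98.7 ± 5.78 CPM in nonOIR within lane code 1 (SD, n = 5 each). Lane code may follow a batch of mice or of library preparation, and these cannot be told apart. In no group did a single library stand apart from the other 7 by Dixon's criterion for any of the 10 genes.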

How the results depend on the processing

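Apoc1, Fabp5, Abcg1, Abca1 and Plin2 were higher in OIR under every alternative run, including each lane code alone and the omission of each library. Fabp3 was not called with no filter on low counts (edgeR adjusted p = 0.114), with limma-voom (0.0698), with lane code as a covariate (0.0529) or in lane code 1 alone (0.678). Apoe was called with lane code as a covariate and in each lane code alone, but not in lane code 2 of the group by lane fit (edgeR adjusted p = 0.051). The number of genes called was 2159 with lane code as a covariate, 417 in lane code 1 alone, 2015 in lane code 2 alone and, read from the group by lane fit, 542 in lane code 1 and 2164 in lane code 2, beside 1368 in all. The cause was not tested. Without 1 library, between 935 and 1556 genes and between 5 and 6 members were called. Npc2, not called anywhere, turned to log2 -0.0223 with upper quartile scaling, -0.0274 in lane code 2 alone and -0.0727 in lane code 2 of the group by lane fit, and lay between -0.0178 and 0.0318 without 1 library. With library size scaling 1020 genes were higher and 364 lower (73.7% higher, against 58.3% with TMM and 51.1% with upper quartile scaling). With replicate number as a block 1679 genes were called, Apoe among them (edgeR adjusted p = 0.00569), and Fabp3 was not (0.114). Same-numbered libraries correlated between -0.04 and 0.11, and the block also absorbs lane code, so the numbers were not taken as pairs. Fabp3 rests on as few as 2 counts in a library, so counting error is large for it.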
